A study of Mus musculus with 14 samples.

Results

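The 10 genes described here encode 6 matrix metalloproteinases (MMPs: Mmp2, Mmp3, Mmp9, Mmp13, Mmp14 and Mmp23) and the 4 tissue inhibitors of metalloproteinases (TIMPs: Timp1, Timp2, Timp3 and Timp4). They were taken as a named list, chosen with earlier results of these data known, from the 19937 genes measured. Each was read by 1 probe set, the brightest over all arrays among those annotated with a single gene symbol. All 10 were measured, and no filter on low values was applied to them.

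Expression was measured in the left ventricle of male mice, on 14 arrays of 1 mouse each. There were 4 CXCR5-/- AB, 4 WT AB, 3 CXCR5-/- Sham and 3 WT Sham mice. AB (aortic banding) narrows the ascending aorta with a ligature, so that the ventricle pumps against a raised pressure, and Sham mice had the operation without the ligature. Hearts were taken 3 weeks later. The CXCR5-/- mice lack this chemokine receptor in every cell, because a neomycin resistance gene stands in for the coding region of the gene. The allele was made in embryonic stem cells of another strain and crossed to C57BL/6 for 8 generations, whereas the WT C57BL/6 mice were bought from a breeder, so genotype and colony cannot be told apart. No source used here gave the ages of the mice. Levels are log2 values after robust multi-array average (RMA), a difference of 1 is a doubling, and levels of different genes cannot be ranked against each other because each probe set has its own affinity.

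On the arrays labelled CXCR5-/-, the Cxcr5 probe set lay at 3.97 to 4.47 after AB, against 3.03 to 3.30 on the WT AB arrays. After Sham it lay at 3.85 to 4.11 on the arrays labelled CXCR5-/- and at 3.23 to 3.24 on the WT arrays. It was thus higher on all arrays labelled CXCR5-/-, and it is not known here whether it lies inside the replaced region, so it does not check the labels. The 8 cardiomyocyte markers averaged 12.1 to 12.4 on every array, and the median percentile of their level among all probe sets was 99.93. Myl7, which encodes the atrial myosin light chain, was high (9.68, 8.82 and 9.09) on 3 Sham arrays, namely replicates 1 and 2 of CXCR5-/- and replicate 1 of WT, while all remaining arrays lay between 5.65 and 7.49. Results that changed without these 3 arrays are given both ways. Without them 1 CXCR5-/- Sham and 2 WT Sham arrays remain, and the single CXCR5-/- Sham array is then assumed to vary like the arrays of the other groups.

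MMPs are zinc-dependent proteases that cut collagen, elastin, proteoglycans and other proteins outside the cell. They are made as inactive precursors and act only once their propeptide is removed, and TIMPs block the active enzyme by filling its catalytic cleft. In the heart, fibroblasts and inflammatory cells are known sources of most of them, and the balance of enzyme and inhibitor is thought to set how fast the matrix is turned over under load. The arrays read mRNA only, so they measured neither activation nor enzyme activity. The paper measured MMP activity by separate assays, which are not used here.

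The promoter letters of 4 of the genes are shown. Mmp3 and Mmp13, which lie on the same chromosome, hold the same pair of short motifs. Of them only Mmp3 was called with AB, in CXCR5-/- hearts, and their responses were not compared by a test. Timp1 and Mmp14, which rose the most among inhibitors and enzymes, hold neither motif. The sequences are those of RefSeq on GRCm38.p6, from -100 to -1 before the annotated start and 5′ to 3′ on the + strand. They lie at chr9:7445722-7445821 (Mmp3), chr9:7272414-7272513 (Mmp13), chrX:20870066-20870165 (Timp1) and chr14:54431498-54431597 (Mmp14). Capitals mark TGANTCA, the letters bound by AP-1 (Fos and Jun) factors, and TATAAA, the letters of a TATA box. They also mark GGGCGG on either strand, the letters of the GC box bound by Sp factors.
Mmp3: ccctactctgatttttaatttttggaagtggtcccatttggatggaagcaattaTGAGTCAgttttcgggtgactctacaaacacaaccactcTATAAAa
Mmp13: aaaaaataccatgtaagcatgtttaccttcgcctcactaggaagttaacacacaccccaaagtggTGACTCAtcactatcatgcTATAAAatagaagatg
Timp1: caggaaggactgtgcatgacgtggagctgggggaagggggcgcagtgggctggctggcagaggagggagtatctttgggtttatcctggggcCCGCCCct
Mmp14: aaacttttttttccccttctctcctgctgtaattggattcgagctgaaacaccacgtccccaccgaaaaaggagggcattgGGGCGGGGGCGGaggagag

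The motifs were searched on both strands over the full 300 bases around each start, for the 8 members in the table (9 starts). TGANTCA began at -46 in Mmp3 and at -35 in Mmp13 and was in no other member, and it is in 7.81% of the 32851 promoters of the table. TATAAA began at -7 in Mmp3 and at -16 in Mmp13 and was likewise in no other member, against 13.6% of all promoters. GGGCGG was found in Mmp14 (at -19 and -13, side by side), Timp1 (-8), Timp2 (-37), Timp3 (-15 and 14) and at 1 of the starts of Mmp23 (19 and 39), against 35.7% of all promoters. No match was found in Timp4, and Mmp2 and Mmp9 were not among the promoters. A match of letters is a description of the sequence and no evidence of binding or of a working TATA box. Positions count from the annotated starts, which were not checked.

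As the plot of all values by array shows, 6 of the 10 members rose with AB in CXCR5-/- hearts, and none fell. They were the enzymes Mmp2, Mmp3, Mmp14 and Mmp23 (4 of 6) and the inhibitors Timp1 and Timp2 (2 of 4). In WT hearts 5 rose and none fell, namely Mmp2, Mmp14, Mmp23, Timp1 and Timp2. By the same limma test at an adjusted p of 0.05, 8.28% of all genes rose and 5.86% fell with AB in CXCR5-/- hearts, and 5.1% rose and 4.22% fell in WT hearts. At an unadjusted p of 0.05 there were 6 members in each genotype, all of them higher after AB. The share of all genes at that p is not given here for AB. This count, and those of the lists below, thus lack a background. All AB arrays lay above all Sham arrays of the genotype for 6 members in each genotype. Of all genes, 13.7% in CXCR5-/- and 9.39% in WT hearts did so. The median log2 change of the 10 members was 0.80 in CXCR5-/- and 0.59 in WT hearts, against -0.01 and 0.01 over all genes. Because the members were chosen with earlier results of these data known, setting them beside all genes is a description and no test.

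**Figure D1:**
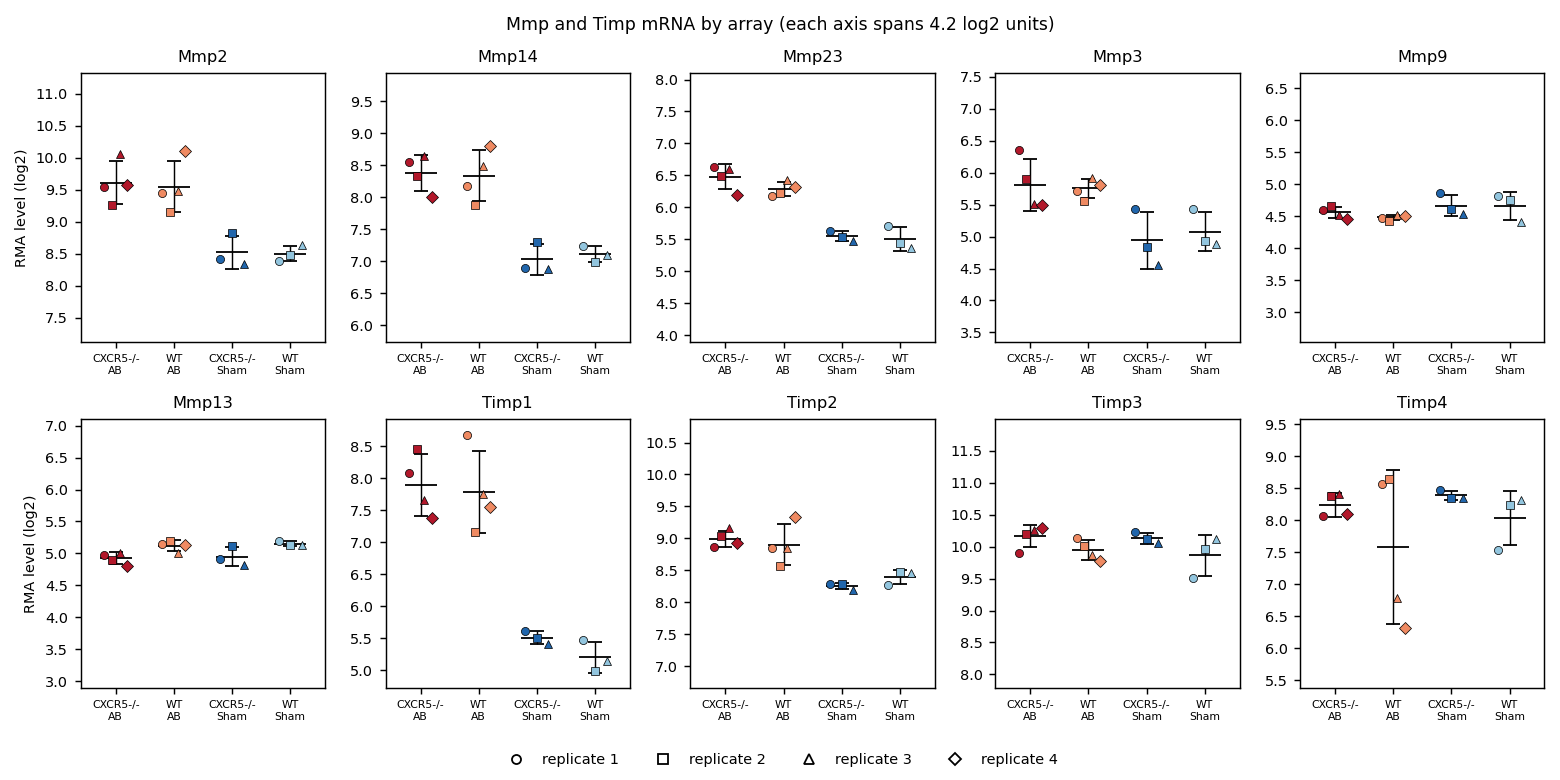
RMA log2 level (vertical axis) of each member on each array, by group; symbols give the replicate number and bars the mean ± SD. For Mmp2, Mmp3, Mmp14, Mmp23, Timp1 and Timp2 the AB arrays lie above the Sham arrays of the same genotype, and Timp4 spreads from 6.32 to 8.65 on the WT AB arrays.

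Mmp2 encodes gelatinase A, which cuts denatured collagen and basement membrane collagen. Its probe set (10573924) lay at 9.54, 9.25, 10.06 and 9.57 on CXCR5-/- AB arrays, against 8.41, 8.82 and 8.33 on CXCR5-/- Sham arrays. On WT AB arrays it lay at 9.46, 9.14, 9.48 and 10.11, against 8.39, 8.48 and 8.63 on WT Sham arrays. Each AB array was above each Sham array of its genotype. The change was 1.09 on the log2 scale (SE 0.20, 2.12-fold; limma, adjusted p = 0.00109) in CXCR5-/- hearts and 1.05 (SE 0.20, 2.07-fold; adjusted p = 0.00238) in WT hearts.

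Mmp14 encodes the membrane-anchored MT1-MMP, which cuts fibrillar collagen at the cell surface and, held together by Timp2, activates the Mmp2 precursor. Its probe set (10415052) lay at 8.55, 8.34, 8.64 and 8.0 on CXCR5-/- AB arrays, against 6.89, 7.31 and 6.88 on CXCR5-/- Sham arrays. The WT AB values were 8.17, 7.87, 8.49 and 8.80, against 7.24, 6.99 and 7.10 on WT Sham arrays. Among the enzymes it changed the most in both genotypes, by 1.36 (SE 0.19, 2.56-fold; limma, adjusted p = 9.18e-05) in CXCR5-/- hearts and 1.22 (SE 0.19, 2.34-fold; adjusted p = 0.000436) in WT hearts. Every AB array was above every Sham array of its genotype. WT AB replicate 4 had the highest level of Mmp14, of Mmp2 and of Timp2 of all 14 arrays.

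Mmp23 is an unusual MMP that is anchored in the membrane as a precursor and lacks the hemopexin domain of most others. Its probe set (10519140) lay at 6.64, 6.48, 6.60 and 6.20 on CXCR5-/- AB arrays, against 5.63, 5.54 and 5.48 on CXCR5-/- Sham arrays. In WT hearts it lay at 6.19, 6.23, 6.43 and 6.31 after AB, against 5.72, 5.45 and 5.36 after Sham. The groups were apart in both genotypes and the spread within them was small. Mmp23 rose by 0.93 (SE 0.11, 1.90-fold; limma, adjusted p = 3.42e-05) in CXCR5-/- hearts and by 0.78 (SE 0.11, 1.72-fold; adjusted p = 0.000306) in WT hearts.

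Mmp3 encodes stromelysin 1, which cuts proteoglycans and fibronectin and can activate other MMP precursors. Its probe set (10583071) lay at 6.35, 5.90, 5.52 and 5.49 on CXCR5-/- AB arrays, against 5.43, 4.84 and 4.56 on CXCR5-/- Sham arrays. In WT hearts it lay at 5.72, 5.56, 5.91 and 5.81 after AB, against 5.43, 4.93 and 4.88 after Sham. The AB and Sham arrays did not overlap in either genotype, as was so (AB higher) for 13.7% of all genes in CXCR5-/- and 9.39% in WT hearts. The change was 0.87 (SE 0.21, 1.83-fold; limma, adjusted p = 0.00885) in CXCR5-/- hearts and 0.67 (SE 0.21, 1.596-fold; adjusted p = 0.0527) in WT hearts, just outside the threshold. In each genotype the highest Sham value was that of replicate 1, which was also the Sham array of its genotype with the highest Myl7. Without the 3 arrays of high Myl7 the change in WT hearts was 0.85 (adjusted p = 0.0192), and without CXCR5-/- Sham replicate 3 the change in CXCR5-/- hearts was 0.68 (adjusted p = 0.0705).

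Mmp9 and Mmp13 did not pass in any comparison. Mmp9, gelatinase B, is known mainly from neutrophils and macrophages, and its probe set (10478633) lay between 4.42 and 4.86 on all 14 arrays. Its mean was 4.56 ± 0.09 on CXCR5-/- AB and 4.67 ± 0.17 on CXCR5-/- Sham arrays (SD, n = 4 and 3), and 4.48 ± 0.04 on WT AB and 4.66 ± 0.21 on WT Sham arrays (SD, n = 4 and 3). The 95% confidence interval of the AB difference ran from -0.33 to 0.12 in CXCR5-/- and from -0.41 to 0.04 in WT hearts. A rise in signal as large as that of Mmp2 lay outside it. The probe set was dim, so the interval bounds its signal and does not exclude a rise in Mmp9 mRNA. Of 5 neutrophil markers, whose mean level was 3.63 to 4.18 over all arrays, none was called in CXCR5-/- hearts and Csf3r, a cytokine receptor gene, rose in WT hearts (by 0.49; limma, adjusted p = 0.0253).

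Mmp13, the main interstitial collagenase of the mouse, lay between 4.81 and 5.20 on all arrays (probe set 10583044). Its mean was 4.93 ± 0.09 on CXCR5-/- AB and 4.95 ± 0.15 on CXCR5-/- Sham arrays, and 5.12 ± 0.08 on WT AB and 5.15 ± 0.03 on WT Sham arrays (SD, n = 4 and 3 in each genotype). The AB differences were -0.02 and -0.03 (SE 0.09 each; limma, adjusted p = 0.916 in CXCR5-/- and 0.910 in WT hearts). Mmp3, whose promoter holds the same TGANTCA and TATAAA letters, rose in the same CXCR5-/- hearts. The responses of Mmp3 and Mmp13 were not compared by a test. Both Mmp9 and Mmp13 were below 5.25, the median of all probe sets, so the flat signal of Mmp13 does not exclude a change in its mRNA.

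Of the inhibitors, Timp1 moved the most. It is secreted, blocks most soluble MMPs and binds the Mmp9 precursor, and it is known to be induced by cytokines and growth factors. Its probe set (10598976) lay at 8.09, 8.47, 7.66 and 7.37 on CXCR5-/- AB arrays, against 5.62, 5.51 and 5.41 on CXCR5-/- Sham arrays. On WT AB arrays it lay at 8.67, 7.17, 7.75 and 7.55, against 5.47, 4.99 and 5.15 on WT Sham arrays. The AB values spread over more than 1 log2 unit within each genotype, but the gap to the Sham arrays was wider. Among all 19937 genes the size of its change ranked 10 in CXCR5-/- and 5 in WT hearts, at 2.39 (SE 0.27, 5.23-fold; limma, adjusted p = 1.67e-05) and 2.58 (SE 0.27, 6.00-fold; adjusted p = 1.48e-05).

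Timp2, a secreted inhibitor that also takes part in activating Mmp2, rose less. Its probe set (10393559) lay at 8.87, 9.03, 9.16 and 8.93 on CXCR5-/- AB arrays, against 8.28, 8.29 and 8.19 on CXCR5-/- Sham arrays. The WT AB arrays had 8.85, 8.57, 8.85 and 9.34, against 8.27, 8.47 and 8.46 on WT Sham arrays. The groups did not overlap in either genotype, though in WT hearts WT AB replicate 2 (8.57) lay close to WT Sham replicates 2 and 3. The change was 0.74 (SE 0.14, 1.67-fold; limma, adjusted p = 0.00113) in CXCR5-/- and 0.50 (SE 0.14, 1.42-fold; adjusted p = 0.0250) in WT hearts. The call in WT hearts was lost without WT Sham replicate 1, 2 or 3 (adjusted p = 0.0860, 0.0615 and 0.0648) and, with 2 WT Sham arrays remaining, without the 3 arrays of high Myl7, when Timp2 changed by 0.44 (adjusted p = 0.129). In CXCR5-/- hearts, where a single Sham array then remained, the difference was no smaller, at 0.80 (adjusted p = 0.0544).

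Timp3, which is held in the matrix and also blocks ADAM proteases, did not pass. Its probe set (10365482) lay at 9.91, 10.19, 10.26 and 10.28 on CXCR5-/- AB arrays, against 10.23, 10.11 and 10.06 on CXCR5-/- Sham arrays. The WT AB arrays had 10.14, 10.01, 9.87 and 9.77, against 9.51, 9.96 and 10.12 on WT Sham arrays. The groups overlapped in both genotypes. The interval of the AB difference ran from -0.26 to 0.31 in CXCR5-/- and from -0.20 to 0.37 in WT hearts.

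Timp4, the inhibitor best known from heart muscle, was the most variable member. Its probe set (10547022) lay at 8.07, 8.37, 8.42 and 8.10 on CXCR5-/- AB arrays, against 8.47, 8.36 and 8.35 on CXCR5-/- Sham arrays. The WT AB values were 8.57, 8.65, 6.79 and 6.32, against 7.54, 8.23 and 8.32 on WT Sham arrays. WT AB replicates 3 and 4 were thus below all other arrays, while WT AB replicates 1 and 2 were above all others. The change with AB was -0.16 (SE 0.41; limma, adjusted p = 0.871) in CXCR5-/- and -0.45 (SE 0.41; adjusted p = 0.612) in WT hearts. The residual SD of Timp4 was 0.70, against a median of 0.148 over all genes, and the interval in WT hearts ran from -1.32 to 0.42. Leaving out single arrays moved the WT difference between -0.81 (without WT AB replicate 2) and -0.029 (without WT AB replicate 4).

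**Figure D2:**
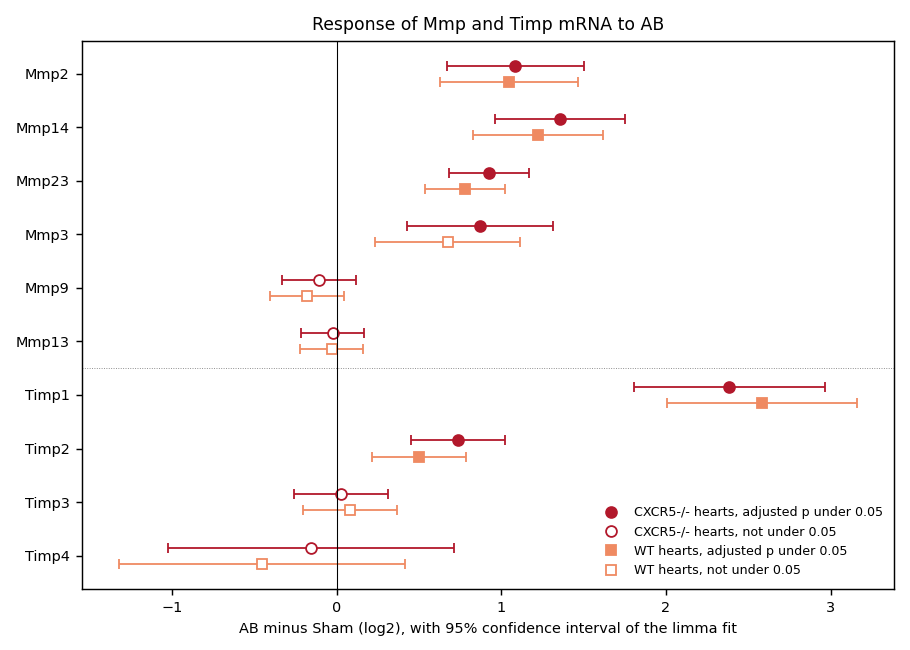
AB minus Sham difference (horizontal axis, log2) of each member in CXCR5-/- hearts (circles, upper) and WT hearts (squares, lower), with the 95% confidence interval of the limma fit; filled symbols passed an adjusted p of 0.05. Timp1 lies at 2.39 and 2.58, and the intervals of the genotypes overlap for every member.

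Between the genotypes, no member passed after AB, after Sham or in the difference of the AB responses (0 of 10 each by limma). Over all genes 0.0451%, 0.0401% and 0% passed in these comparisons. At an unadjusted p of 0.05 the members numbered 1, 0 and 0, against 5.94%, 2.38% and 2.88% of all genes. Significance analysis of microarrays was not run between genotypes. For Timp1 the difference of hearts labelled CXCR5-/- from WT hearts after AB was 0.11, with an interval from -0.42 to 0.65, and for Mmp14 it was 0.05, with an interval from -0.31 to 0.41. For Mmp2 it was 0.06, from -0.33 to 0.44. The difference of the Timp1 responses to AB was -0.20, with an interval from -1.02 to 0.62.

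Mmp13 was lower in hearts labelled CXCR5-/- both after AB, by limma's difference of -0.20 (SE 0.08, interval from -0.38 to -0.02, adjusted p = 0.769), and after Sham, at -0.20 (SE 0.10, adjusted p = 0.9999). After AB it lay at 4.98, 4.90, 5.01 and 4.81 on the arrays labelled CXCR5-/-, against 5.15, 5.20, 5.01 and 5.14 on WT arrays. After Sham it lay at 4.91, 5.11 and 4.82 on the arrays labelled CXCR5-/-, against 5.19, 5.13 and 5.14 on WT arrays. The Sham groups did not overlap, as was so in this direction for 3.57% of all genes, and the AB groups overlapped by a single value. Mmp13 lies on chromosome 9, as does Cxcr5, and its probe set was below the median level of all probe sets. Whether sequence of the other strain remains at Mmp13 was not tested. Timp4 was above WT on all 3 Sham arrays labelled CXCR5-/-, as were 3.28% of genes, with a difference of 0.36 (SE 0.44). The largest member difference after AB was also that of Timp4, at 0.66 (SE 0.38, adjusted p = 0.905), with WT AB replicates 3 and 4 low. With single arrays left out it ran from 0.235 without WT AB replicate 4 to 1.01 without WT AB replicate 2.

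The balance of enzyme and inhibitor mRNA was read within each array, as the mean log2 level of the 6 enzymes minus that of the 4 inhibitors, with the WT Sham mean set to 0. It was -0.32 ± 0.20 on CXCR5-/- AB and -0.26 ± 0.10 on CXCR5-/- Sham arrays (SD, n = 4 and 3). On WT arrays it was -0.09 ± 0.49 after AB and 0 ± 0.27 after Sham (SD, n = 4 and 3), and the groups overlapped in every comparison. Both sides of the balance had moved: the enzyme mean was 0.63 ± 0.16 on CXCR5-/- AB and -0.06 ± 0.15 on CXCR5-/- Sham arrays, and the inhibitor mean was 0.95 ± 0.15 on CXCR5-/- AB and 0.20 ± 0.07 on CXCR5-/- Sham arrays (SD, n = 4 and 3). In WT hearts after AB these means were 0.59 ± 0.16 and 0.68 ± 0.37, relative to 0 after Sham. No test was run on these scores, since the members were a chosen list.

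The direction of the balance depended on how the members were summed and on single arrays. With means it differed between AB and Sham by -0.07 in CXCR5-/- and -0.09 in WT hearts, and with each array left out in turn by -0.15 to 0.012 and by -0.26 to 0.094, so that a single array also turned its sign in each genotype. With the median of the enzymes minus the median of the inhibitors it differed by 0.50 and 0.34, and with Mmp9 and Mmp13, the members below the median level, left out it differed by 0.31 and 0.25. The median gives less weight to Timp1, which rose far more than the other inhibitors. It was also taken over raw levels of probe sets with unlike affinities, so the genes it reads can change between groups. Mmp23 and Mmp13 were the middle enzymes on CXCR5-/- Sham replicates 2 and 3, and Mmp23 and Mmp3 on every CXCR5-/- AB array. The difference of medians thus does not compare the same genes and carries no reading of the balance by itself.

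Within the WT AB group the balance was -0.66 and -0.32 on replicates 1 and 2 and 0.20 and 0.41 on replicates 3 and 4. Replicate 1 had the highest Timp1 of all arrays, and replicates 3 and 4 had the lowest Timp4. The CXCR5-/- AB arrays were closer together, at -0.08, -0.56, -0.27 and -0.38.

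The mean level of an enzyme relative to an inhibitor fell with AB against Timp1 and rose against Timp2. Mmp2, Mmp14, Timp1 and Timp2 themselves all rose. Mmp2 relative to Timp1 lay at -1.84, -2.51, -0.90 and -1.11 on CXCR5-/- AB arrays, against -0.50, 0.01 and -0.38 on CXCR5-/- Sham arrays. On WT AB arrays it lay at -2.52, -1.32, -1.57 and -0.74, against -0.38, 0.20 and 0.19 on WT Sham arrays. All AB arrays were lower than the Sham arrays of their genotype, by 1.30 in the mean of CXCR5-/- hearts and 1.54 in WT hearts. Mmp9, which was dim and changed little, carries no reading of its own here, so Mmp9 relative to Timp1 mostly repeats the change of Timp1. It lay at -2.80 ± 0.39 on CXCR5-/- AB and -0.30 ± 0.07 on CXCR5-/- Sham arrays, and at -2.77 ± 0.63 on WT AB and 0 ± 0.26 on WT Sham arrays (SD, n = 4 and 3 in each genotype).

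Against Timp2 the direction was the other way. Mmp14 relative to Timp2 lay at 0.97, 0.59, 0.78 and 0.37 on CXCR5-/- AB arrays, against -0.10, 0.31 and -0.02 on CXCR5-/- Sham arrays. The WT AB values were 0.61, 0.59, 0.93 and 0.75, against 0.26, -0.18 and -0.07 on WT Sham arrays. Every AB array was higher than the Sham arrays of its genotype, by 0.62 and 0.72 in the means of CXCR5-/- and WT hearts. Mmp2 relative to Timp2 differed by 0.35 in CXCR5-/- hearts, where the groups overlapped, and by 0.54 in WT hearts, where they did not.

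Among the inhibitors, Timp1 relative to Timp4 lay 2.54 higher with AB in CXCR5-/- hearts and 3.03 higher in WT hearts. It was at 2.49 ± 0.46 on CXCR5-/- AB and -0.05 ± 0.05 on CXCR5-/- Sham arrays, and at 3.03 ± 1.22 on WT AB and 0 ± 0.66 on WT Sham arrays (SD, n = 4 and 3 in each genotype). Mmp2 relative to Timp4 ranged from 0.02 to 3.33 on WT AB arrays and overlapped the WT Sham arrays (-0.22 to 0.38), whereas in CXCR5-/- hearts AB (0.41 to 1.18) and Sham (-0.53 to -0.01) were apart.

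**Figure D3:**
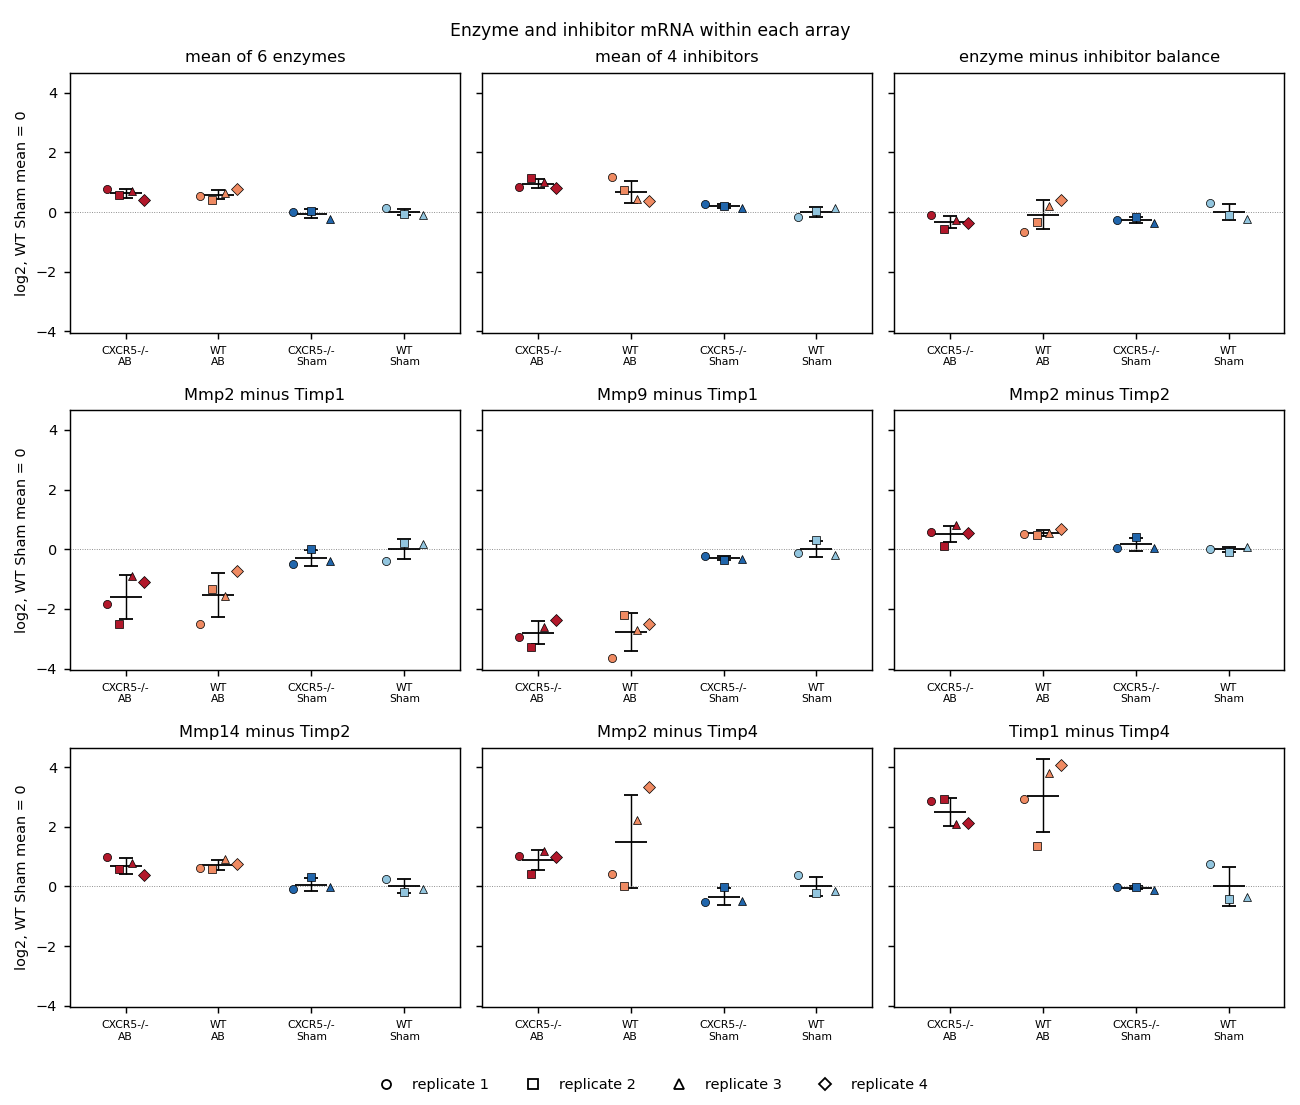
Enzyme and inhibitor levels within each array (vertical axis, log2 with the WT Sham mean at 0), by group; symbols give the replicate number and bars the mean ± SD. Mmp2 and Mmp9 relative to Timp1 are lower on every AB array, Mmp14 relative to Timp2 is higher on every AB array, and the balance over all members overlaps between groups.

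The genes whose values over the 14 arrays were most like those of the members were ranked by Pearson's r, which here reflects mostly the step between AB and Sham and is a description only. Mmp2 was closest to Col1a2 (r = 0.981), Col1a1, Col15a1, Bgn and Pqlc3, of which the first encode the chains of type I collagen. Within the groups, after the group means were removed, Mmp2 and Col1a2 still had an r of 0.946. Mmp14 was closest to Loxl1 (r = 0.987), a cross-linking enzyme of elastin, followed by Col15a1, Meox1, Ldlrad4 and Fbln1. Mmp23 was closest to Igfbp7 (r = 0.988), Rcn3, Tmem45a, Lbp and Anxa8. Timp1 was closest to Mgp (r = 0.987), the matrix Gla protein, and to Rai14, Mfap5, Fxyd5 and Ecrg4. Mfap5, a microfibril gene, rose by 2.40 in CXCR5-/- hearts and 2.24 in WT hearts (SE 0.19 each; limma, adjusted p = 3.41e-07 and 1.47e-06), close to Timp1 in size.

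Timp4 falls outside the rule by which these genes were named, and was added after its spread on the WT AB arrays was seen. Its closest genes were Sult1a1 (r = 0.957), a sulfotransferase, Max (0.908), Tff3 (0.895), Adh1 (0.895), an alcohol dehydrogenase, and Fas (0.877), a death receptor. Sult1a1 lay at 8.20, 8.13, 7.29 and 6.94 on WT AB arrays 1 to 4, and at 7.72 to 8.36 on the other 10 arrays. Adh1 lay at 7.75, 8.44, 6.68 and 6.35 on WT AB arrays, and at 7.74 to 8.46 on the others. WT AB replicates 3 and 4 were the lowest arrays for each of these 5 genes except Max, for which WT Sham replicate 1 (8.07) was just below WT AB replicate 3 (8.09). The genes were picked for their likeness to Timp4 over these same arrays. Their low values there thus follow largely from the choice and are no separate sign that these arrays are unusual. No label sets these arrays apart from the other WT AB arrays.

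**Figure D4:**
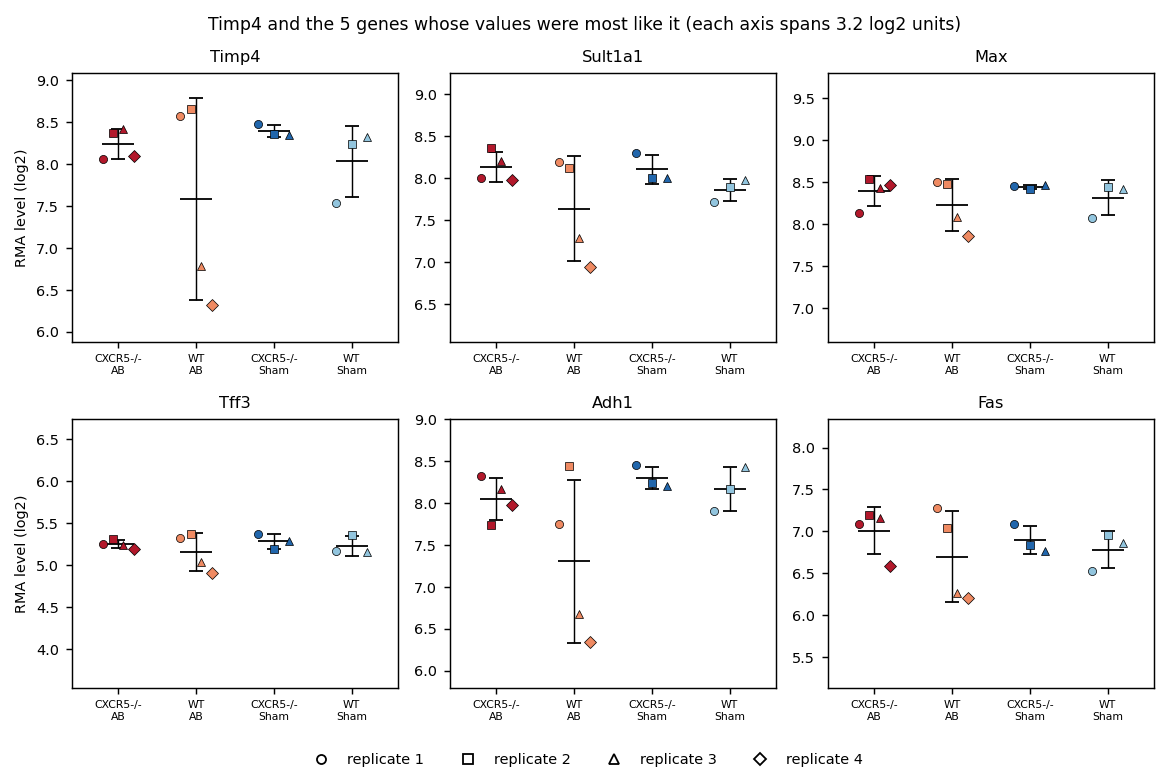
RMA log2 level (vertical axis) of Timp4 and of the 5 genes most like it over the arrays, by group; symbols give the replicate number and bars the mean ± SD. WT AB replicates 3 (triangle) and 4 (diamond) lie low in each panel, with Timp4 at 6.79 and 6.32.

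Of 16 more MMP genes measured, 1 rose in each genotype, a share near that of all genes that rose (8.28% in CXCR5-/- and 5.1% in WT hearts), and 2 in CXCR5-/- and 3 in WT hearts had an unadjusted p under 0.05. Mmp19 was the gene called, rising by 0.34 in CXCR5-/- hearts and 0.39 in WT hearts (SE 0.08 each; limma, adjusted p = 0.00610 and 0.00319). Mmp19 lay at 5.199 to 5.27 on CXCR5-/- AB and 4.84 to 4.94 on CXCR5-/- Sham arrays, and at 5.0959 to 5.2032 on WT AB and 4.69 to 4.78 on WT Sham arrays. Mmp12, the macrophage elastase, is named after its values were seen. It differed by 0.43 in CXCR5-/- and 0.49 in WT hearts (SE 0.16 each), with the AB and Sham arrays apart in both, and did not pass (limma, adjusted p = 0.0929 and 0.0716). The median change of the 16 was -0.03 in CXCR5-/- and 0.09 in WT hearts.

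Of 18 genes for activators and cofactors of MMPs, 3 rose and 1 fell in CXCR5-/- hearts and none was called in WT hearts by limma, where 3 had an unadjusted p under 0.05. The median change was 0.26 in CXCR5-/- and -0.0025 in WT hearts. Plat (tissue plasminogen activator) rose by 0.59 (SE 0.15; limma, adjusted p = 0.0124), Plaur (the urokinase receptor) by 0.43 and Pcsk5 (a proprotein convertase) by 0.33, while Furin, the convertase that activates Mmp14, fell by 0.44 (SE 0.12, adjusted p = 0.0191). In WT hearts Furin differed by -0.31 (adjusted p = 0.140) and Plau, the urokinase gene, by 0.30 (adjusted p = 0.130). No member of the list passed in the difference of the AB responses, so the lists of the genotypes are not shown to differ.

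Of 19 other inhibitors and clearance genes, 8 rose in CXCR5-/- and 6 in WT hearts and none fell (median 0.32 and 0.26). Thbs1, which encodes a thrombospondin that binds MMP2 and MMP9, rose by 2.11 in CXCR5-/- and 1.88 in WT hearts (SE 0.28 each). Serpina3n, a serine protease inhibitor gene, rose by 2.0 and 1.78 (SE 0.22), Pcolce, whose product enhances procollagen processing and not MMP inhibition, by 1.30 and 1.09 (SE 0.13), and Serping1 (C1 inhibitor) by 0.82 and 0.62 (SE 0.10), each value for CXCR5-/- hearts standing before that for WT hearts.

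Among 11 ADAM proteases, which shed proteins from the cell surface, Adam9 and Adam10 rose in CXCR5-/- hearts, by 0.54 and 0.34 (limma, adjusted p = 0.00249 and 0.0180). In WT hearts they differed in the same direction, by 0.24 and 0.17, and were not called. No ADAM gene passed in the difference of the AB responses, so the genotypes are not shown to differ. Adam22, which lacks protease activity, fell by 0.42 in CXCR5-/- and by 0.49 in WT hearts. The median of the 11 was 0.09 in CXCR5-/- and 0.07 in WT hearts. Of 17 other matrix proteases 6 rose and 2 fell in CXCR5-/- hearts, and 5 rose and 1 fell in WT hearts (median 0.26 and 0.12). Htra1 fell in both, by 0.38 in CXCR5-/- and by 0.50 in WT hearts, and Tll2 fell in CXCR5-/- hearts, by 0.38. Ctsk, the collagen-cutting cathepsin K, rose by 1.82 in CXCR5-/- hearts and 1.43 in WT hearts (SE 0.10 each; limma, adjusted p = 4.5e-09 and 1.48e-07), more than any MMP among the members. Ctss (cathepsin S), a protease of macrophages, rose by 1.40 in CXCR5-/- and 0.69 in WT hearts (SE 0.14), and the difference of these responses, 0.71 (SE 0.20), had an adjusted p of 0.9998.

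Most of the matrix genes measured rose. Of 16 genes for collagens, fibronectin, elastin, laminin chains, small proteoglycans and other matrix proteins, most of them known MMP substrates, 14 rose in CXCR5-/- and 13 in WT hearts and none fell, with medians of 1.14 and 1.07. The laminin chain genes Lamb1 (0.069 in CXCR5-/- and -0.0074 in WT hearts) and Lamc1 (0.29 and 0.14) did not pass in either genotype, nor did Dcn (decorin) in WT hearts (0.29; limma, adjusted p = 0.189). Postn (periostin) rose by 2.85 in CXCR5-/- and 2.89 in WT hearts (SE 0.13), Fmod (fibromodulin) by 2.09 and 2.34 (SE 0.23), and Fn1 (fibronectin) by 1.70 and 1.53 (SE 0.18). Col3a1 (type III collagen) rose by 1.34 and 1.36 (SE 0.16), each first value being that of CXCR5-/- hearts.

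Of 26 transcription factor and cytokine genes known to act on MMP or TIMP genes, 6 rose in each genotype and none fell (median 0.21 in CXCR5-/- and 0.20 in WT hearts). Tgfb2 rose by 1.67 in CXCR5-/- and 1.20 in WT hearts (SE 0.14), Tgfb1 by 0.999 and 0.79 (SE 0.11), Tgfb3 by 1.14 and 1.05 (SE 0.18) and the receptor gene Tgfbr1 by 0.90 and 0.85 (SE 0.14). Runx1 and the oncostatin M receptor gene Osmr also rose. The Fos and Jun genes, named here because of the AP-1 letters and not by rank, were not called, with Fos at 0.30 (SE 0.19, adjusted p = 0.375) and Jun at -0.02 (SE 0.10, adjusted p = 0.921) in CXCR5-/- hearts by limma. In WT hearts Fos was at 0.17 (adjusted p = 0.715) and Jun at 0.11 (adjusted p = 0.616). None of the 123 genes of these 7 lists passed between genotypes by limma. An unadjusted p under 0.05 was found for 11 after AB, 1 after Sham and 6 in the difference of responses. Of all genes, 5.94%, 2.38% and 2.88% had such a p in these comparisons.

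Markers of some cell types that make MMPs and TIMPs moved with AB, while none of 5 endothelial markers was called in either genotype. All 8 fibroblast markers rose in CXCR5-/- hearts and 5 of 8 in WT hearts, with a median change of 0.96 and 0.86. The marker list shares Col1a1, Col1a2, Dcn, Lum and Postn with the substrates. The markers outside the substrates were called in CXCR5-/- hearts at 0.43 (Pdgfra), 0.69 (Tcf21) and 0.52 (Dpt). Of these, Dpt was also called in WT hearts (0.44), and Pdgfra (0.15) and Tcf21 were not. The mean level of all 8 fibroblast markers was 9.56 to 9.79 on CXCR5-/- AB and 8.36 to 8.64 on CXCR5-/- Sham arrays. In WT hearts it was 9.32 to 9.79 on AB and 8.39 to 8.59 on Sham arrays. Of 6 macrophage markers, Adgre1, Cd68 and Lyz2 rose in CXCR5-/- and Cd68 and Lyz2 in WT hearts, with a mean level of 7.58 to 7.92 on CXCR5-/- AB and 7.24 to 7.37 on CXCR5-/- Sham arrays, and 7.62 to 7.75 on WT AB and 7.33 to 7.49 on WT Sham arrays. Of 8 cardiomyocyte markers, Myh6, Tnni3 and Ryr2 fell in CXCR5-/- and Ryr2 in WT hearts. The part of these cell types in the changes of the members was not tested, and in whole ventricle more cells of a type cannot be told apart from more RNA per cell.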

How the data were processed

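Left ventricular RNA of 14 mice was hybridized to Affymetrix mouse ST 1.0 arrays by the authors, who processed the arrays with RMA and deposited log2 values for 34760 probe sets. The kit named for RNA isolation differs between the paper and the labels, and no source used here states the settings or version of RMA. The deposited log2 values (array medians 5.19 to 5.30) were used as they are. Groups and replicate numbers came from the sample labels, and each replicate is a separate mouse. Of the probe sets, 21640 carried 1 gene symbol, 1321 several and 11799 none, and symbols were updated through RefSeq (GRCm38.p6), which 21553 matched. Where a gene had more than 1 probe set (954 of 19937 genes), the brightest over all arrays stood for it.

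The comparisons used limma 3.58.1 under R 4.3.3, with 4 group means in 1 fit (10 residual and 7.13 prior degrees of freedom), with Benjamini-Hochberg adjustment over all 19937 genes and a threshold of 0.05. The members, the gene lists and the tests were chosen with earlier results of these data known. Of the lists, the rule gave up to 4 called genes with the smallest p per comparison, otherwise up to 2. It was followed in the main for AB, though Ctsz and Fap are not described. The genes it gave between genotypes are mostly not described. Tll2, Runx1, Osmr, Lamb1 and Lamc1 were named outside it. For likeness, the 5 genes of highest Pearson r were named for each of the 4 members with the smallest p. Balance scores and pairs carry no test. The steps were tested on simulated data. Precision is limited by 3 or 4 arrays per group.

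Significance analysis of microarrays, the test of the paper's methods, was run for the AB comparisons as an alternative, at a q of 0.05, the false discovery rate those methods give. The other alternatives were an intensity trend, estimated array weights, dropping genes under the 30th percentile of level, quantile normalization, subtraction of array medians, averaging the probe sets of each gene, fitting only the groups compared, a replicate block, each array left out in turn and, added after the data were seen, the 3 arrays of highest Myl7 left out. Replicate numbers are shared between groups. Arrays of the same number deviated together in every pair only between the AB groups (r = 0.125 to 0.220 over 4 pairs), while some pairs of unlike number correlated more strongly. This pairing comes from those correlations and not from the labels.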

Additional observations from a re-analysis of the deposited data

Results flagged for a closer look

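No member had an array far from the others of its group by Dixon's criterion for groups of 4. Of all 126 groups tested, members included, 5 were flagged, each for a gene of the related lists. Chance alone would flag about 1 in 20. Mmp19 lay at 5.2032 on WT AB replicate 1, against 5.0959 to 5.104 on the other WT AB arrays. Serping1 lay at 10.53 on CXCR5-/- AB replicate 4, against 10.77 to 10.79. Adam22 lay at 4.77 on WT AB replicate 3, against 5.15 to 5.22. Ctsk lay at 7.05 on WT AB replicate 2, against 6.94 to 6.96, and Tll1, a tolloid-like protease gene, at 4.68 on WT AB replicate 1, against 4.44 to 4.48. The wide spread of Timp4 on the WT AB arrays did not meet this criterion, because its 4 values fall into pairs.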

How the results depend on the processing

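Mmp2, Mmp14, Mmp23 and Timp1 kept their calls and direction for AB in both genotypes under every alternative run, and so did Timp2 in CXCR5-/- hearts except without the 3 arrays of highest Myl7, which leaves 1 CXCR5-/- Sham array (0.80, adjusted p = 0.0544, against 0.74 with all arrays). The calls nearest the threshold did not hold throughout. Mmp3 in CXCR5-/- hearts was lost without CXCR5-/- Sham replicate 3 (adjusted p = 0.0705). In WT hearts it passed with array weights (0.00927), the 30th percentile filter (0.0448), the compared groups alone (0.0143), the replicate block (0.0073), significance analysis of microarrays, the Myl7 arrays left out (0.0192) and in 5 of 14 leave-one-out fits (0.0251 to 0.0472). Timp2 in WT hearts was lost with the compared groups alone (0.0784), significance analysis of microarrays, the Myl7 arrays left out (0.129) and each WT Sham array left out (0.0615 to 0.0860). Of the 680 member results between genotypes under alternatives, 0 passed. In all, 1085 member results kept direction and side of the threshold, 11 gained and 8 lost a call, and 56, none of them called, changed sign. The cause of these changes was not tested. The number of arrays limits the precision, and the SE of the members' AB differences ran from 0.091 to 0.412.

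With array weights 4770 genes were called for AB in CXCR5-/- hearts, 3408 in WT hearts and 39 between genotypes after Sham, against 2818, 1858 and 8. The sign turned for Mmp13 with AB in CXCR5-/- hearts (0.044), for Mmp2 (-0.061) and Mmp9 (-0.12) between genotypes after Sham, and for Timp3 in the difference of responses (0.066). Mmp9 between genotypes after Sham was -0.012 after quantile normalization and -0.0011 with array medians subtracted. The compared groups alone gave 4 genes between genotypes after AB, against 9. Without the 3 arrays of highest Myl7, a choice made after seeing the data, 1 CXCR5-/- Sham and 2 WT Sham arrays remain, and the lone array is assumed to vary like the other groups, so lower counts there go with fewer arrays. Then 844 genes were called for AB in CXCR5-/- hearts, 5 for genotype after AB and 1 for genotype after Sham, with 5 members called for AB in each genotype. The sign then turned for Mmp9 (0.030) and Mmp13 (0.10) with AB in CXCR5-/- hearts, Timp3 with AB in WT hearts (-0.10), Mmp2 (-0.23) and Mmp9 (-0.053) after Sham and Timp3 in the difference of responses (0.20). The AB difference of the balance was 0.50 in CXCR5-/- and 0.34 in WT hearts with medians, and 0.31 and 0.25 over the brighter members.

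With replicate number as a block, 21 genes were called between genotypes after AB, against 9, and 0 members. There every same-numbered pair was above 0.1 (0.125 to 0.220), but some arrays of unlike number correlated more strongly (CXCR5-/- 2 with WT 1 at 0.456, CXCR5-/- 3 with WT 4 at 0.419), so the pairing is a hint from the data only. In the other comparisons not every same-numbered pair was above 0.1, with correlations from -0.109 to 0.451, and the block gave 3623 and 2636 genes for AB in CXCR5-/- and WT hearts, with 6 members in each, and 8 and 0 genes after Sham and in the difference of responses. Timp4 with AB in CXCR5-/- hearts turned to 0.079.

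With each array left out in turn, the genes called for AB numbered 1890 to 3028 in CXCR5-/- and 1002 to 2120 in WT hearts (1002 and 1025 without WT Sham replicate 3 or 2), those between genotypes 4 to 34 after AB (34 without CXCR5-/- AB replicate 4, 4 and 5 without replicate 3 or 2) and 3 to 8 after Sham (3 to 5 without any Sham array other than CXCR5-/- replicate 1). For AB, the members whose sign turned ranged from -0.086 to 0.058 (Mmp13) and -0.012 to 0.11 (Timp3) in CXCR5-/- hearts and from -0.055 to 0.0071 (Mmp13) and -0.10 to 0.21 (Timp3) in WT hearts. Between genotypes after AB they ranged from -0.094 to 0.25 (Mmp2), -0.12 to 0.17 (Mmp3), -0.10 to 0.21 (Mmp14), -0.093 to 0.41 (Timp1) and -0.018 to 0.24 (Timp2). After Sham they ranged from -0.13 to 0.12 (Mmp2), -0.38 to 0.058 (Mmp3), -0.12 to 0.085 (Mmp9) and -0.030 to 0.15 (Mmp23). In the difference of responses they ranged from -0.11 to 0.23 (Mmp2), -0.0056 to 0.20 (Mmp9), -0.056 to 0.088 (Mmp13), -0.020 to 0.29 (Mmp14), -0.40 to 0.10 (Timp1), -0.18 to 0.12 (Timp3) and -0.13 to 0.65 (Timp4).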
